A study of Saccharomyces cerevisiae with 18 samples.

Results

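Growth on galactose was compared with growth on glucose in the libraries of a transcript isoform sequencing (TIF-Seq) study of budding yeast that were enriched for long molecules. In TIF-Seq the cap site and the poly(A) site of each RNA molecule are sequenced together, so every read is a stretch of genome with a start and an end. A read was given to a gene when its stretch covered the whole coding sequence of that gene, and of no other, on the same strand. Genes with at least 20 such reads in the glucose and galactose columns together were taken as measured. These were 4387 of 6002 protein-coding genes, and among genes with a coding sequence of at least 1500 nt, called long genes here, 1575 of 2239.

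The cells were wild-type SLS045, a diploid laboratory strain of the S288c background, harvested in exponential growth at an optical density of 1. Both media were rich in yeast extract (1%) and peptone (2%) and carried 1% of a sugar, glucose in YPAD and galactose in YPGal. The series holds 18 libraries, of which 4 were enriched for long mRNAs, 2 per medium, from glucose cultures 1 and 2 and galactose cultures 1 and 4. Libraries of the same kind and medium were already summed into 1 column in the deposited table, which leaves no spread between cultures and no basis for a p-value. All intervals are 95% intervals that cover counting error only. PCR copies of a molecule may be counted more than once, and the intervals are then too narrow. A column cannot tell fewer cells with a transcript from less RNA per cell. The standard columns, 6 libraries per medium, are set beside the enriched ones as values. They share their cultures with them, so they are no independent repeat, and the standard galactose column also sums cultures 2 and 3.

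Yeast takes up galactose through a permease and turns it into glucose-1-phosphate by the Leloir pathway, whose genes are switched on by the activator Gal4. In the absence of galactose Gal80 holds Gal4 in check, and Gal3 bound to galactose lifts that block. Glucose represses these genes through the Mig repressors, and with them genes for other sugars, for respiration and for the use of nonfermentable carbon. Several of the enzymes and most sugar transporters involved are encoded by long genes, which is where the enrichment adds reads.

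Depth in the long-enriched columns was 2745847 reads for glucose and 3559614 for galactose, of which 2455839 (89.4%) and 3176176 (89.2%) covered exactly 1 coding sequence. The median read spanned 1512 nt in glucose and 1570 nt in galactose, against 887 and 845 nt in the standard columns. Of reads that covered 1 gene, 34.5% in glucose and 40.3% in galactose lay on long genes, against 2.22% and 3.03% in the standard columns. Counted as distinct pairs of ends the order of the media turned, with 37.9% in glucose and 36.7% in galactose. GAL1, GAL2 and GAL10 together took 252272 reads, 7.94% of the galactose reads that covered 1 gene, and without them the shares on long genes were 34.4% and 35.1%. The 4 genes that mark the media went with their labels. GAL1, GAL3 and MRK1 were higher in the column labelled galactose, and HXT1 was higher in the one labelled glucose.

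**Figure D1:**
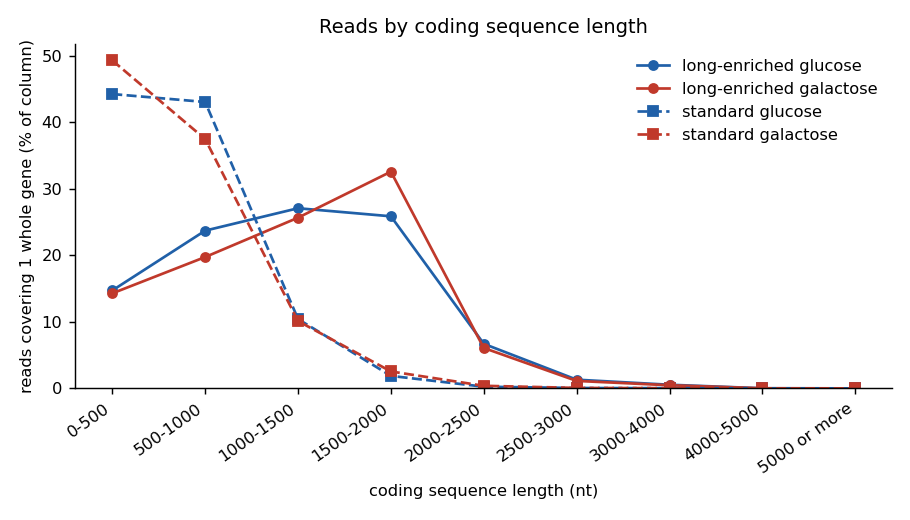
Share of the reads covering 1 whole gene, in percent of each column, by coding sequence length in nt, for the 2 long-enriched columns (circles) and the 2 standard columns (squares). Each point is 1 pooled column without error bars; the enriched columns hold 25.9% (glucose) and 32.6% (galactose) of their reads on genes of 1500 to 2000 nt, where the standard columns hold 1.88% and 2.54%.

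The enrichment decided which long genes could be compared at all. Of genes with coding sequences of 2000 to 2500 nt, 85.2% were measured, against 44.9% in the standard columns. Of those of 3000 to 4000 nt, 45.6% were measured, against 8.13%. Above 4000 nt only 7 of 123 genes below 5000 nt were measured, the longest with 4356 nt, and the 117 genes that run over 5000 nt could not be covered because no read in the table spans more than 5000 nt. Among the 1575 measured long genes, 694 had fewer than 20 reads in the standard columns together, and 3 were measured there but not here.

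Ratios are galactose over glucose after trimmed-mean scaling, and log2 ratios carry 0.5 reads as pseudocount. A gene was called higher or lower when the log2 ratio was at least 2-fold and the interval of the ratio excluded 1. Over all 4387 measured genes 409 were higher (9.32%) and 151 lower (3.44%). Counts of called members in the gene lists below are to be read beside these shares. Among the 1575 long genes 118 were higher (7.49%), 69 were lower (4.38%) and 1388 were neither, with a median log2 ratio of -0.09 against 0.01 over all measured genes. The median of long genes was 0.06 under scaling by total reads, which moved the median of all genes by 0.15, to 0.16. That scaling gave 539 genes higher and 106 lower over all measured genes, and 157 and 46 among long genes. Of the 694 long genes that only the enriched columns measured, 53 were higher and 13 lower. Just inside the minimum, at 20 to 24 reads over all lengths, 122 genes included 16 higher and 2 lower, and just outside it, at 15 to 19 reads, 123 genes held 12 and 6 that met the same thresholds.

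**Figure D2:**
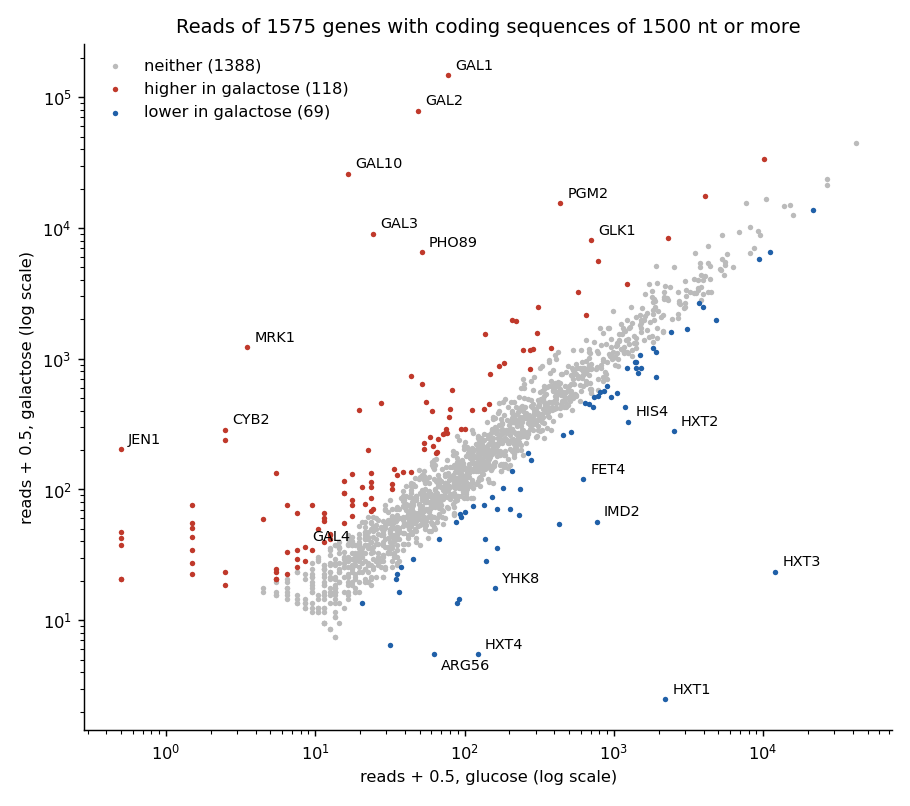
Reads in the galactose column against reads in the glucose column for the 1575 measured long genes, both axes as reads plus 0.5 on a log scale, 1 point per gene. Red points were called higher (118), blue points lower (69) and grey points neither (1388). GAL1, GAL2, GAL10 and GAL3 stand far above the cloud, HXT1 and HXT3 far below it.

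The galactose genes held the largest increases. Gal4 is known to bind as a dimer to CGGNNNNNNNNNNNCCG, and the 300 nt upstream of the most used 5' end of GAL10 and GAL2 hold several copies of these letters. They are shown because both genes stand among the 3 highest of all long genes. The stretches are from the R64 genome of RefSeq, 5' to 3' on the gene's strand, with the fixed letters of each match in capitals. GAL10 has 3 matches in chrII:278548-278641 (minus strand), GAL2 has 2 overlapping matches in chrXII:289860-289920 (plus strand), and GAL3 has 1 in chrIV:463126-463182 (plus strand).
GAL10: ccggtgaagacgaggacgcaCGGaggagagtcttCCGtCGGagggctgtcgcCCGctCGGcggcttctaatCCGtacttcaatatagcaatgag
GAL2: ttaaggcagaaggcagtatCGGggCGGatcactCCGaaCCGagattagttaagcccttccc
GAL3: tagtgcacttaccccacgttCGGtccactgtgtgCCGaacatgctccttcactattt
The same letters, which read alike on both strands, occurred upstream of 94 of the 4387 measured genes (2.14%), of 7 of the 118 long genes called higher (5.93%), of 1 of the 69 called lower (1.45%) and of 29 of the 1388 called neither (2.09%). The other 4 long genes called higher with a match were CSR2, EDS1, OPT2 and REG1. GAL1, which is transcribed away from GAL10, has no match within 300 nt of its own start. The 3 GAL10 matches, within chrII:278568-278621, also lie upstream of GAL1, whose most used 5' end is at 278963, but beyond that window. A match is a description of these letters and not evidence of binding.

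GAL1 (chrII:279021-280607, plus strand), galactokinase, had 77 reads in glucose and 147402 in galactose, and 0 and 24292 in the standard columns. Its enriched ratio was 1333 (1066 to 1689). GAL2 (chrXII:290212-291936), the galactose permease, had 48 and 78808 enriched and 1 and 14251 standard reads, with an enriched ratio of 1143 (862 to 1550). GAL10 (chrII:276253-278352), the epimerase and mutarotase, had 16 and 26062 enriched and 0 and 4863 standard reads, with an enriched ratio of 1134 (698 to 1984). In all 3 genes the galactose columns were far above the glucose columns of the same protocol. The most used 5' end of GAL1 lay 58 nt before the start codon in both columns and took 74.0% of its reads in glucose and 70.9% in galactose. Its mean leader was longer in glucose, 89.5 against 57.7 nt, with a standard error of the difference of 26.2 nt, and the difference was 0.109 nt once ends beyond 500 nt were left out. The 30 nt around that end, chrII:278948-278977, are shown with the starting base in capitals because 104566 galactose reads began there.
GAL1: aaatgtcataaaagtAtcaacaaaaaattg

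Among the other enzymes and the regulators 5 of 7 were higher, by smaller factors. GAL3 (chrIV:463434-464996), the galactose sensor, had 24 and 9067 enriched and 2 and 1177 standard reads, an enriched ratio of 263 (177 to 411). PGM2 (chrXIII:475897-477606), the major phosphoglucomutase, had 437 and 15441 enriched reads, a ratio of 24.6 (22.4 to 27.1). GAL4 (chrXVI:79711-82356), the activator, had 8 and 36 enriched and 0 and 8 standard reads, a ratio of 3.13 (1.43 to 7.80). It is 2646 nt long and was measured only in the enriched columns. The shorter members GAL7 (the uridylyltransferase, 1101 nt) and GAL80 (the repressor of Gal4, 1308 nt) had 3 and 367 reads and 219 and 886 reads, with ratios of 85.2 (28.9 to 415) and 2.82 (2.43 to 3.28). GAL7 had more reads in the standard galactose column, 2922, than in the enriched one. PGM1 (1322 and 1045 reads, log2 ratio -0.86), the minor phosphoglucomutase, and UGP1 (1307 and 2505 reads, log2 ratio 0.42), UDP-glucose pyrophosphorylase, were neither. Thus 8 of the 10 members of the galactose list were higher and none lower, with a median log2 ratio of 5.41 against 0.01 over all measured genes. Counted as distinct pairs of ends in place of reads, GAL4 (log2 ratio 0.94) and GAL80 (0.91) lost their calls.

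Other genes reported as Gal4 targets were divided. MTH1 (360 and 5652 reads, log2 ratio 3.45), a repressor of hexose transporter genes, GCY1 (216 and 1738 reads, 2.48), a glycerol dehydrogenase, and PCL10 (302 and 1220 reads, 1.49), a cyclin that acts on glycogen synthase, were higher. FUR4, the uracil permease encoded next to GAL1, was lower and is described with the 5' ends.

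Hexose transporters split by member. HXT1 (chrVIII:290913-292625), a low-affinity glucose transporter, had 2207 reads in glucose and 2 in galactose, and 362 and 0 in the standard columns. Its reads were 1585-fold lower in galactose (438 to 13097). HXT3 (chrIV:1162957-1164660), another low-affinity transporter, had 12058 and 23 enriched and 1405 and 1 standard reads, 753-fold lower (502 to 1188). HXT4 (chrVIII:287081-288811) had 122 and 5 reads, 35.05-fold lower (14.6 to 110), and HXT2 (chrXIII:288079-289704), of higher affinity, 2509 and 278 reads, 13.0-fold lower (11.4 to 14.7). All 4 stood higher in the glucose column of both protocols. The HXT6 and HXT7 genes, high-affinity transporters with near-identical coding sequences, had 0 and 47 and 311 and 2493 enriched reads, and reads between copies cannot be told apart with certainty. HXT7 had a ratio of 5.58 (4.96 to 6.30), but a log2 ratio of 0.83 without a call when distinct pairs were counted. HXT6 was 10.9-fold higher with its 0 set to a floor of 3 reads. Folds at this floor, also given below for other genes with 0 reads, are not interval limits. RGT2 (41 and 38 reads, log2 ratio -0.63), a glucose sensor, was neither. Of the 18 members of the list 7 were measured, 2 higher and 4 lower, with a median log2 ratio of -3.69.

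Among genes of glucose sensing and repression 5 of 31 measured members were called, 2 higher and 3 lower. Over all measured genes 9.32% were higher and 3.44% lower. MRK1 (chrIV:312951-314748, minus strand), which encodes a homolog of glycogen synthase kinase 3, had 3 and 1226 enriched and 0 and 179 standard reads, an enriched ratio of 284 (97.1 to 1381). Its galactose molecules began at many positions, the most used of which lay 36 nt before the start codon and took 20.6% of 1226 reads, and this end is shown for that reason (chrIV:314770-314799, starting base in capitals).
MRK1: cttgaaaataatctcAagattgaagaggtg
REG1, a regulatory subunit of the Glc7 phosphatase that acts in glucose repression, had 8 and 28 reads and was higher (log2 ratio 1.22). MIG2 (226 and 9 reads, 36.1-fold lower, 18.7 to 79.9) and MIG3 (23 and 0 reads, 11.01-fold lower at the floor of 3 reads), repressors related to Mig1, fell in galactose. STD1 (105 and 13 reads, 11.6-fold lower, 6.50 to 22.5), a paralog of MTH1 in glucose signalling, fell too. The remaining 26 of the 31 measured members were neither. They included the long gene SNF1 (187 and 245 reads, log2 ratio -0.13), the kinase that relieves repression, and its partner SNF4 (170 and 250 reads, 0.03). The list's median log2 ratio was 0.03.

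Genes for maltose and sucrose use were mostly higher. Of 9 measured members 7 were higher and none lower, with a median log2 ratio of 2.27. The maltases MAL12 (2 and 240 reads, ratio 83.5, 22.9 to 694) and MAL32 (1 and 76 reads, ratio 52.9, 9.21 to 2117) are near-identical copies, as is the isomaltase gene IMA2 (0 and 20 reads, at least 4.64-fold higher) of other isomaltase genes. MAL33 (84 and 1117 reads, ratio 9.26, 7.41 to 11.7), an activator of the MAL genes, and the maltose permeases MAL31 (53 and 228 reads, log2 ratio 1.57) and MAL11 (11 and 60 reads, 1.87) were higher too. MAL13 (57 and 87 reads, log2 ratio 0.08), another MAL activator, was neither. MAL31 lost its call with distinct pairs (0.78). SUC2 (chrIX:37385-38983), invertase, had 82 and 571 reads that covered its coding sequence, a ratio of 4.85 (3.84 to 6.19), but counting all reads that overlap at least 50% of it gave a log2 ratio of 0.40 and no call.

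Respiratory genes were higher throughout the list chosen. All 15 measured members of 15 were higher, 7 of them long, with a median log2 ratio of 2.30 against 0.01 over all measured genes. The list held dehydrogenases, subunits of the respiratory chain and of ATP synthase, and GUT1, a long gene that encodes glycerol kinase. GUT2 (chrIX:51759-53708), the mitochondrial glycerol-3-phosphate dehydrogenase, had 43 and 742 enriched and 3 and 102 standard reads, a ratio of 12.0 (8.83 to 16.7). The NADH dehydrogenases NDI1 (209 and 1975 reads) and NDE1 (788 and 5559 reads), which face the mitochondrial matrix and the cytosol, had ratios of 6.58 (5.70 to 7.62) and 4.91 (4.56 to 5.30). The ATP synthase subunit ATP1 (573 and 3242 reads) had a ratio of 3.94 (3.60 to 4.31). Among short members COX4 (13 and 172 reads, log2 ratio 3.15), of cytochrome c oxidase, and CYT1 (8 and 115 reads, 3.24), cytochrome c1, were highest. HAP4 (chrXI:232227-233891), the activator of respiratory genes, had 55 and 470 enriched reads, a ratio of 5.95 (4.49 to 8.02).

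The list of the tricarboxylic acid cycle and pyruvate dehydrogenase had 21 measured genes, of which 13 were higher and 1 lower, with a median log2 ratio of 1.60. SDH1 (chrXI:169207-171129), the flavoprotein subunit of succinate dehydrogenase, had 6 and 76 reads, a ratio of 8.82 (3.87 to 24.8), and its partners SDH3 (183 and 1357 reads) and SDH4 (196 and 1485 reads) had log2 ratios of 2.36 and 2.40. CIT1, citrate synthase, had 793 and 8122 reads (log2 ratio 2.83). KGD1 (15 and 94 reads, log2 ratio 2.09), the 3045 nt gene of a 2-oxoglutarate dehydrogenase subunit, had only 0 and 7 standard reads. Of the genes of pyruvate dehydrogenase, PDA1 (8666 and 9990 reads, log2 ratio -0.32), PDB1 (0.37), LAT1 (0.32) and PDX1 (0.49) were neither. LPD1 (2319 and 8336 reads, log2 ratio 1.32), which encodes its dihydrolipoamide dehydrogenase subunit, was higher.

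Genes for lactate, acetate and gluconeogenesis followed. JEN1 (chrXI:22234-24084), the lactate permease, had 0 and 202 enriched and 0 and 26 standard reads, 46.9-fold higher in the enriched columns at the floor of 3 reads. CYB2 (chrXIII:165533-167308), the mitochondrial lactate dehydrogenase that reduces cytochrome c, had 2 and 286 enriched and 0 and 66 standard reads, a ratio of 99.6 (27.3 to 826). ALD4 (136 and 1553 reads, ratio 7.95, 6.67 to 9.54), a mitochondrial aldehyde dehydrogenase, and ACH1 (221 and 1941 reads, ratio 6.11, 5.32 to 7.06), a mitochondrial CoA transferase outside the lists, were higher. PCK1 (7 and 65 reads, ratio 6.46, 2.97 to 16.7), the gluconeogenic carboxykinase, and PYC1 (17 and 130 reads, ratio 5.32, 3.20 to 9.42), pyruvate carboxylase, had 0 and 1 and 1 and 16 standard reads, too few to be measured there. PCK1 lost its call with distinct pairs (log2 ratio 1.14). The pyruvate carboxylase isozyme PYC2 (143 and 172 reads, log2 ratio -0.26), was neither, as was ICL1 (92 and 240 reads, 0.86), isocitrate lyase. Of 14 measured members 7 were higher and 1, CIT2 (134 and 87 reads, -1.14), the peroxisomal citrate synthase, was lower. Under scaling by total reads CIT2 fell just short of 2-fold.

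Storage carbohydrate genes were higher or neither. Of 15 measured members 7 were higher and none lower, with a median log2 ratio of 0.95. GLC3 (chrV:133120-135234), the glycogen branching enzyme, had 19 and 407 reads, a ratio of 14.9 (9.43 to 25.03). GPH1 (chrXVI:861306-864014), glycogen phosphorylase, had 51 and 636 reads, a ratio of 8.68 (6.52 to 11.8). The glycogen synthases GSY1 (60 and 395 reads, log2 ratio 2.19) and GSY2 (147 and 765 reads, 1.85) were higher as well. TPS1 (639 and 1752 reads, log2 ratio 0.93), trehalose-6-phosphate synthase, lay just short of the threshold. Of 10 measured genes of fatty acid oxidation 5 were higher and 1 lower. POX1 (0 and 37 reads, at least 8.59-fold higher), the peroxisomal acyl-CoA oxidase, and FAA2 (15 and 55 reads, log2 ratio 1.32), an acyl-CoA synthetase, were the long members that rose. The short genes SPS19 (8 and 50 reads, log2 ratio 2.05) and ECI1 (11 and 37 reads, 1.18), both of unsaturated fatty acid breakdown, rose too. FAA4 (3739 and 2674 reads, log2 ratio -1.01) was called lower just past the threshold and fell short of 2-fold under scaling by total reads.

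Phosphate and iron uptake genes held 1 of the largest single differences. PHO89 (chrII:796798-798522), the sodium and phosphate cotransporter, had 51 and 6516 enriched and 0 and 575 standard reads, an enriched ratio of 88.9 (67.6 to 120). GIT1 (chrIII:297049-298605), the glycerophosphoinositol permease, had 27 and 461 enriched and 1 and 41 standard reads, a ratio of 11.9 (8.06 to 18.2). GIT1 is not a member of the list counted below. Enriched reads that covered a large part of its coding sequence, but not all, numbered 88 in glucose and 132 in galactose. The rise of GIT1 is smaller when these partial reads are counted too. PHO84 (6908 and 9346 reads, log2 ratio -0.09), the high-affinity phosphate transporter, was neither. The siderophore transporters SIT1 (169 and 880 reads, log2 ratio 1.85) and ARN2 (75 and 290 reads, 1.42) were higher, as was the multicopper oxidase FET3 (4093 and 17410 reads, 1.57). FET4 (chrXIII:912880-914538), the low-affinity iron transporter, had 624 and 119 enriched and 93 and 12 standard reads, 7.53-fold lower (6.18 to 9.24). PHM6 (23 and 119 reads, log2 ratio 1.82), a short gene of phosphate response, was higher too. Of 25 measured members 5 were higher, 2 lower and 18 neither, against 9.32% higher and 3.44% lower over all measured genes.

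**Figure D3:**
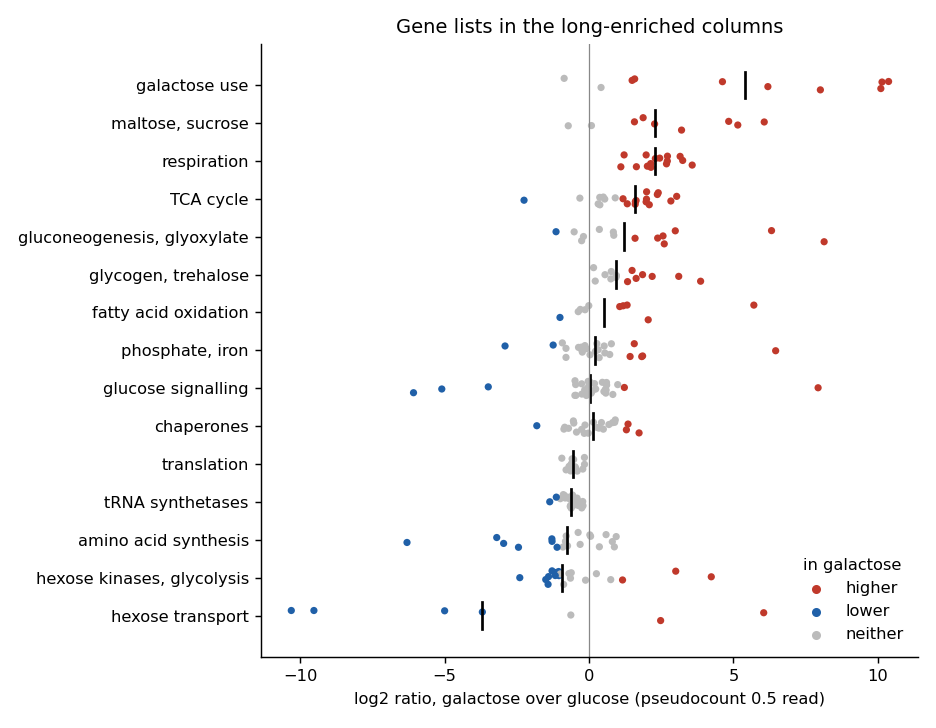
Log2 ratio of galactose over glucose in the long-enriched columns for the measured members of 15 gene lists, 1 point per gene, red where higher, blue where lower and grey where neither; black bars are medians. Medians run from 5.41 for galactose use to -3.69 for hexose transport.

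Hexose kinases and glycolysis showed both directions. HXK1 (173 and 4683 reads, log2 ratio 4.23), hexokinase, and GLK1 (700 and 8058 reads, 3.00), glucokinase, rose, together with the pyruvate kinase isozyme PYK2 (377 and 1211 reads, 1.16). HXK2 (3438 and 5894 reads, log2 ratio 0.26), the hexokinase that dominates on glucose, was neither. Of the 20 measured members 9 were lower, among them TDH2 (12330 and 3361 reads, -2.40), which has near-identical copies, ADH1 (12293 and 6248 reads, 2.83-fold lower), alcohol dehydrogenase, and the long genes PFK1 and PFK2, both subunits of phosphofructokinase, at -1.05 each. ADH1 lost its call with distinct pairs (-0.81). Scaling by total reads, which raised every log2 ratio, left PFK1 and PFK2 short of 2-fold and without a call.

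Several genes of amino acid synthesis fell. ARG56 (chrV:295410-298001), which encodes 2 enzymes of arginine synthesis, had 62 and 5 enriched and 18 and 3 standard reads, 17.8-fold lower (7.24 to 56.8). HIS4 (chrIII:65934-68333), of histidine synthesis, had 1243 and 328 reads, 5.44-fold lower (4.82 to 6.17). LYS4 (1925 and 719 reads, 3.85-fold lower, 3.53 to 4.20), homoaconitase, ASN1 (1044 and 546 reads, 2.75-fold lower, 2.47 to 3.05), asparagine synthetase, and HOM3 (180 and 102 reads, 2.53-fold lower, 1.98 to 3.26), aspartate kinase, fell by smaller factors. ASN1 lost its call with distinct pairs (log2 ratio -0.97). The shorter arginine genes ARG1 (6566 and 119 reads, log2 ratio -6.30) and ARG4 (2597 and 480 reads, -2.96) fell further than HIS4. Of 20 measured members of the amino acid and nucleotide list 7 were lower and none higher, with a median of -0.77. Among its long members MET6 (369 and 974 reads, 0.88), methionine synthase, LEU4 (2669 and 2216 reads, -0.79) and LEU1 (59 and 48 reads, -0.82), of leucine synthesis, were neither. ARG56, LYS4, ASN1 and HOM3 are not in that list. Of the purine synthesis genes ADE16 (1880 and 2753 reads, 0.03) and ADE4 (648 and 966 reads, 0.05) were neither, and ADE3 (log2 ratio -1.29), of folate metabolism, fell.

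Some of the long genes that fell carry the letters TGACTCA, the site of the activator of amino acid synthesis Gcn4, before their start. The letters, on either strand, occurred in the 300 nt upstream of the most used 5' end of 122 of 4387 measured genes (2.78%). Among long genes they preceded 15 of the 69 called lower (21.7%), 2 of the 118 called higher (1.69%) and 40 of the 1388 called neither (2.88%). Over all measured genes called lower the count was 29 of 151 (19.2%). Among the 15 long genes were ARG56, TPO1, HIS4, ATR1, ALD5, QDR3, ASN1, UGA3, HOM3, HIS7, NRT1, YHR020W and LEU9. Beside genes of amino acid synthesis they include TPO1, ATR1 and QDR3, membrane exporters, UGA3, an activator of GABA use, and YHR020W, a prolyl-tRNA synthetase. The stretches of 4 of them are shown because they span strong and weak decreases, with the matched letters in capitals, from the R64 genome of RefSeq, 5' to 3' on the gene's strand. They lie at chrV:295167-295213 (ARG56, plus), chrIII:68506-68552 (HIS4, minus), chrXVI:822373-822419 (ASN1, plus) and chrV:258215-258261 (HOM3, minus).
ARG56: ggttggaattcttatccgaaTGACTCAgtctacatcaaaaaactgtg
HIS4: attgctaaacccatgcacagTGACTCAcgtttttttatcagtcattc
ASN1: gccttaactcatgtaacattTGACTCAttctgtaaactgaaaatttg
HOM3: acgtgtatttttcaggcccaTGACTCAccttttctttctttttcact
The log2 ratios of these genes, from reads that cover the whole coding sequence, were -4.03, -2.44, -1.46 and -1.34 in that order. Genes of arginine synthesis such as ARG56 are also under control of other factors, and the letters alone were not tested for any effect.

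The remaining genes at the lower end belong to other processes. IMD2 (chrVIII:554396-555967), an inosine monophosphate dehydrogenase of guanine nucleotide synthesis, had 765 and 56 enriched and 115 and 2 standard reads, 19.6-fold lower (14.9 to 26.2). YHK8 (160 and 17 reads, 13.5-fold lower, 8.18 to 23.8), a presumed transporter, and AQR1 (431 and 54 reads, 11.5-fold lower, 8.62 to 15.5), an exporter of acids and amino acids, fell, as did TPO1 (165 and 35 reads, 6.77-fold lower, 4.68 to 10.1), a polyamine exporter. ATF1 (chrXV:1046226-1047803), alcohol acetyltransferase, had 88 and 13 reads, 9.72-fold lower (5.40 to 19.0). ALD5 (1192 and 423 reads, 4.05-fold lower, 3.62 to 4.53) is a mitochondrial aldehyde dehydrogenase like ALD4, which rose.

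Lists of the growth machinery had no member called higher. Their median log2 ratios were below 0, -0.63 for tRNA synthetases, -0.54 for translation factors and -0.52 for ribosome biogenesis. The shares over all measured genes were 9.32% higher and 3.44% lower. Of 20 measured tRNA synthetases 2 were lower, MES1 (1527 and 854 reads, log2 ratio -1.36), the methionyl enzyme, and YHR020W (2430 and 1591 reads, -1.13), and none was higher; all 20 log2 ratios lay between -1.36 and -0.21. All 14 translation factors were neither, with log2 ratios from -0.94 to -0.16. Among them were the translation elongation factor EFT1 (4398 and 4059 reads, -0.64), a member of a near-identical pair, and GCD11 (5329 and 5765 reads, -0.41), a subunit of initiation factor eIF2. Of 33 ribosome biogenesis factors 3 were lower, NOP7 (721 and 427 reads, -1.28), DHR2 (1405 and 852 reads, -1.24) and UTP8 (640 and 454 reads, -1.02). Under scaling by total reads UTP8 (-0.87) and YHR020W (-0.98) lost their calls, and the medians of the 3 lists stayed below 0. With distinct pairs MES1 (-0.63), NOP7 (-0.41), DHR2 (-0.88), UTP8 (-0.93) and YHR020W (-0.87) all lost them.

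Most members were neither in the lists of amino acid permeases, P-type ATPases, ABC transporters, chaperones and structural genes. Over all measured genes 9.32% were higher and 3.44% lower. Of 23 chaperones 3 were higher, HSP104 (17 and 83 reads, log2 ratio 1.73), the disaggregase, and the mitochondrial HSP78 (66 and 243 reads, 1.35) and MDJ1 (61 and 216 reads, 1.29). SSA2 (4834 and 1982 reads, -1.81), a cytosolic Hsp70 with a near-identical copy in SSA1 (1901 and 5124 reads, 0.91), was lower. HSP104 (0.93), HSP78 (0.68) and SSA2 (-0.74) lost their calls with distinct pairs. Of 17 amino acid permeases MMP1 (245 and 1175 reads, 1.74), for S-methylmethionine, was higher and BAP2 (9379 and 5740 reads, -1.23), for branched-chain amino acids, lower, and both lost their calls with distinct pairs (0.98 and -0.66). No member was called among 18 subunits of the proteasome regulatory particle (RPN10, 2222 and 3127 reads, -0.03; RPN5, 1455 and 2671 reads, 0.35), 13 cell wall enzymes (GAS1, 5335 and 8794 reads, 0.20; BGL2, 2126 and 3084 reads, 0.01) and 11 actin and motor genes (ABP1, 3817 and 4400 reads, -0.32; SAC6, 1840 and 2706 reads, 0.03). The 3 measured P-type ATPases (PMA1, 183 and 147 reads, -0.84; SPF1, 100 and 107 reads, -0.43), the 4 ABC transporters (MDL2, 619 and 848 reads, -0.07; ATM1, 688 and 581 reads, -0.77) and the 3 large RNA polymerase subunits (RPA135, 110 and 85 reads, -0.89; RET1, 52 and 68 reads, -0.14) had no call either. Of the 16, 20 and 6 genes in these last lists only these were measured. Of 15 nuclear pore genes 2 were lower (median log2 ratio -0.42), and of 14 genes of fatty acid and sterol synthesis 1 was lower (-0.13); these are named with the longest genes.

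Some differences came from the longest genes. Higher were MSB2 (3921 nt, 21 and 77 reads, ratio 2.55, 1.56 to 4.36), a mucin of the osmosensing pathway, PYC1 (3537 nt), SEF1 (3447 nt, 2 and 18 reads, log2 ratio 2.37), SDD4 (3402 nt, 5 and 24 reads, ratio 3.34, 1.25 to 11.2) and CSR2 (3366 nt, 0 and 42 reads, 9.75-fold higher at the floor of 3 reads). Lower were TCB2 (3537 nt, 35 and 22 reads, 2.29-fold, 1.30 to 4.09), a tether of the endoplasmic reticulum to the plasma membrane, NUP116 (3342 nt, 67 and 41 reads, 2.35-fold, 1.57 to 3.55) and NUP1 (3231 nt, 34 and 20 reads, 2.44-fold, 1.37 to 4.48), of the nuclear pore, and HMG1 (3165 nt, 37 and 25 reads, 2.13-fold, 1.25 to 3.68), HMG-CoA reductase. None of these 9 genes had more than 29 standard reads in both media together, and the counts behind them are small. With reads overlapping at least 50% of the coding sequence MSB2 (log2 ratio 0.89), SDD4 (0.37), NUP1 (-0.70) and HMG1 (-0.17) lost their calls, and HMG1 (-0.93) lost it also under scaling by total reads.

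Further genes, picked after their values were seen, were measured only in the enriched columns and had at most 1 read in glucose. They were YMR196W (1 and 55 reads, ratio 38.3, 6.59 to 1539), GIP2 (1 and 50 reads, ratio 34.8, 5.97 to 1402), a putative regulatory subunit of the Glc7 phosphatase, STL1 (1 and 43 reads, ratio 29.9, 5.09 to 1210), a glycerol symporter, EDS1 (1 and 34 reads, ratio 23.7, 3.97 to 962), a putative zinc cluster protein, and XBP1 (1 and 27 reads, ratio 18.8, 3.10 to 770), a repressor active under stress. The catalase CTT1 (22 and 200 reads, ratio 6.33, 4.07 to 10.3) was measured in both protocols, with 9 and 22 standard reads. KIN82 (15 and 93 reads, ratio 4.32, 2.49 to 8.02), a kinase, had 4 and 2 standard reads, so its standard counts do not show the difference.

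Where molecules began and ended was compared over 1321 long genes with at least 20 reads in each column. The mean distance from 5' end to start codon had a median over genes of 59.3 nt in glucose and 59.6 nt in galactose, and 84.8% of genes differed by no more than 10 nt. The leader was longer in galactose by 20 nt or more in 42 long genes (3.18%) and shorter in 39 (2.95%), against 3.93% and 5.92% over all 3663 genes with such counts. Of these 81 genes, 24 longer and 24 shorter leaders exceeded 2 standard errors of the difference, an error that covers the scatter of reads only.

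FUR4 (chrII:281443-283344), the uracil permease downstream of GAL1 on the same strand, had the largest lengthening. The mean leader measured 96.4 nt in glucose against 468 nt in galactose, a difference of 372 nt (standard error 27.1), with 517 and 275 reads, and 99.1 and 580 nt in the standard columns (34 and 22 reads). With ends beyond 500 nt left out the difference was 105 nt. The most used 5' end was the same in both media, 136 nt before the start codon, with 21.7% of reads in glucose and 6.18% in galactose, and the median leaders were 98 and 326 nt. FUR4 reads were 2.70-fold lower in galactose (2.33 to 3.14), but counting all reads that overlap at least 50% of its coding sequence gave a log2 ratio of -0.65 and no call. PLB3, a phospholipase, had means of 422 and 763 nt with only 25 and 21 reads (standard error 137). NRT1, a nicotinamide riboside transporter, had means of 123 and 196 nt, LYS14, an activator of lysine synthesis, of 128 and 180 nt, and DUR3, the urea permease, of 203 and 267 nt with a standard error of 55.9 nt on a difference of 64.2 nt. Without ends beyond 500 nt the shifts of PLB3 (52.3 nt), LYS14 (16.2 nt) and DUR3 (19.6 nt) were smaller, the last 2 of them under 20 nt, and that of NRT1 was unaltered at 72.9 nt.

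The leader that shortened most was that of ARN2, the siderophore transporter that rose. It had a mean of 313 nt in glucose and 155 nt in galactose, a difference of -158 nt (standard error 41.8). Its most used 5' end lay 781 nt before the start codon in glucose (9 of 75 reads) and 24 nt before it in galactose (48 of 290 reads), and both ends are shown with the starting base in capitals (chrVIII:10980-11009 and chrVIII:10223-10252, minus strand).
ARN2 in glucose: ggtttatagtcattcAcaggctgaataaac
ARN2 in galactose: gctccaaaaacagttGtaactctttgggcc
SSA3, an inducible Hsp70, had means of 345 and 199 nt (standard error of the difference 50.1), ARN1, another siderophore transporter, of 219 and 105 nt (34.1), GIT1 of 173 and 72.6 nt (38.6) and RIM8, of the pH response, of 203 and 123 nt (39.0). When ends beyond 500 nt were left out the shift of ARN2 was -10.1 nt. Those of ARN1 (-97.9 nt), GIT1 (-76.8 nt) and SSA3 (-75.1 nt) were also smaller than with all ends, and that of RIM8 (-80.2 nt) was unaltered.

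With at least 100 reads in each column, 758 long genes could be compared, FUR4 and LYS14 among them. Further examples from these genes were picked after their values were seen. NDE1, the external NADH dehydrogenase that rose, had a mean leader of 138 nt in glucose and 99.2 nt in galactose, a difference of -38.4 nt (standard error 2.72), with medians of 132 and 96 nt. ZWF1, glucose-6-phosphate dehydrogenase, went from 120 to 84.6 nt (-35.3 nt, 2.43), with medians of 121 and 59 nt. PYK2 went from 72.0 to 49.8 nt (-22.1 nt, 2.13) and MSC1 from 94.6 to 68.0 nt (-26.5 nt, 2.70). In the other direction AVT3, a vacuolar amino acid transporter, went from 23.8 to 62.2 nt (38.4 nt, 2.06) at the same median of 21 nt in both media. MCH4, a transporter of the monocarboxylate family, went from 41.5 to 63.4 nt (21.9 nt, 1.74), and ECM3 from 90.8 to 134 nt (43.1 nt, 8.67).

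**Figure D4:**
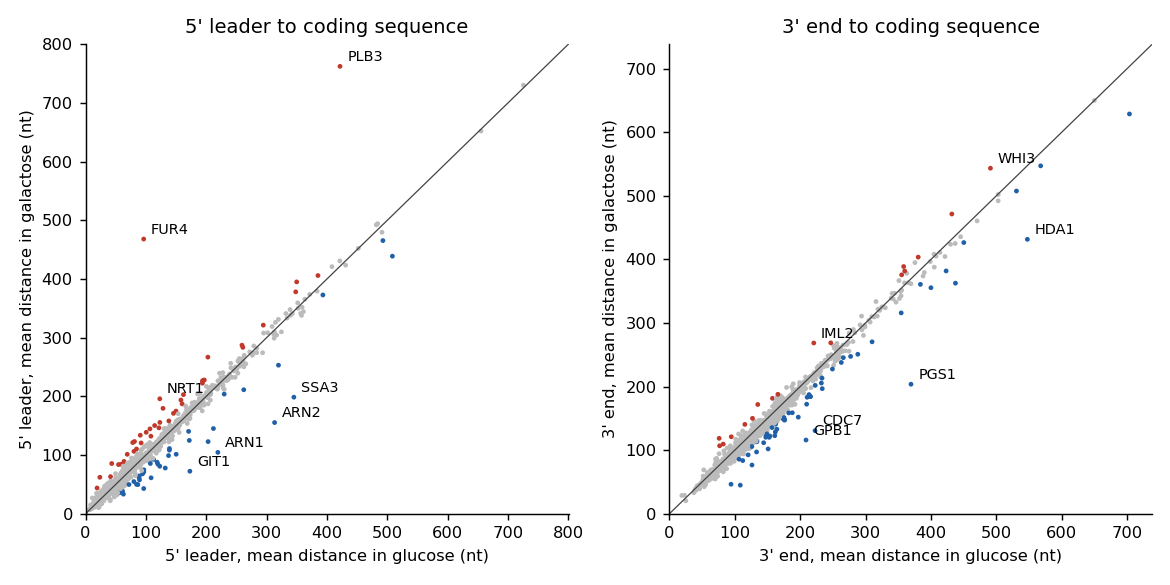
Mean distance in nt from the 5' end to the start codon (left) and from the stop codon to the 3' end (right) in galactose against glucose for 1321 long genes, 1 point per gene, without error bars. Red points were longer and blue points shorter in galactose by 20 nt or more; the diagonal marks equal distances. FUR4 (96.4 and 468 nt) stands far above the diagonal on the left, PGS1 (370 and 204 nt) below it on the right.

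At the 3' end the medians over genes were 123 nt in glucose and 120 nt in galactose, and 80.5% of the 1321 long genes differed by no more than 10 nt. The distance was longer in galactose by 20 nt or more in 17 (1.29%) and shorter in 56 (4.24%), against 2.59% and 6.69% over all 3663 genes. Of the 56 shorter genes 38 exceeded 2 standard errors, and of the 17 longer ones 4. With at least 100 reads in each column 20 were shorter and none longer. The largest shortenings by mean distance were those of PGS1, phosphatidylglycerolphosphate synthase (370 and 204 nt, difference -166 nt, standard error 79.9), HDA1, a histone deacetylase (548 and 432 nt, -116 nt, 118), GPB1, a regulator of the cAMP pathway (209 and 116 nt, -93.0 nt, 60.9), CDC7, a kinase of replication (223 and 131 nt, -92.1 nt, 53.2), and DFG16 (704 and 629 nt, -74.9 nt, 51.4). Apart from PGS1 these lay within 2 standard errors, and none had more than 61 reads in a column. The largest lengthenings, of WHI3 (52.4 nt, standard error 41.1), IML2 (47.7 nt, 26.4), SPT10 (39.4 nt, 21.8) and MIH1 (36.7 nt, 22.5), were also within 2 standard errors, and that of GYL1 (42.6 nt, 14.6) was not. Without ends beyond 500 nt the shifts of PGS1 (-24.5 nt), HDA1 (-2.94 nt), CDC7 (-17.1 nt), IML2 (22.0 nt) and MIH1 (5.25 nt) were smaller, and GPB1 (4.12 nt), DFG16 (50 nt) and WHI3 (-4.35 nt) turned direction.

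Among the deeper genes that shortened at the 3' end, picked after their values were seen, the median moved by far more than the mean in some and hardly in others. ALD5 (1192 and 423 reads) had mean distances of 214 and 187 nt, a difference of -26.1 nt (standard error 4.75), with medians of 273 nt in glucose and 161 nt in galactose. APP1, a phosphatidate phosphatase, had medians of 148 and 75 nt (mean difference -32.5 nt, 8.45), and BDF1, a bromodomain protein of the general transcription machinery, of 333 and 259 nt (-37.3 nt, 10.0). For ASH1, a repressor whose mRNA is localised to the bud, the medians were 114 and 113 nt while the means were 106 and 85.8 nt (-20.7 nt, 2.83). In FEN2, a pantothenate transporter (438 and 363 nt, -74.9 nt, 18.0), the shift was 0.973 nt in the other direction once ends beyond 500 nt were left out.

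Whether a molecule covered its gene or only part of it was compared over 1238 long genes. Of the reads overlapping at least 50% of the coding sequence, a median of 85.0% covered it whole in glucose and 85.5% in galactose, and 1107 genes differed by less than 10 percentage points. In 11 genes the whole share was at least 20 points higher in galactose and in 11 at least 20 points lower. The genes named here were chosen after their values were seen. SUC2 molecules covered the coding sequence in 11.2% of 735 reads in glucose (Wilson interval 9.08 to 13.6) and 41.3% of 1381 in galactose (38.8 to 44.0). SUC2 is known to give a shorter transcript for an intracellular invertase beside the one for the secreted enzyme, and the reads that lack part of the coding sequence numbered 653 in glucose and 810 in galactose. GIT1 went from 23.5% (16.7 to 32.0) to 77.7% (74.2 to 80.9). In the other direction RUP1, a regulator of the ubiquitin ligase Rsp5, went from 91.9% (86.5 to 95.3) to 37.1% (32.6 to 41.9), with 137 and 150 whole reads but 12 and 254 partial ones. FUR4 went from 90.9% (88.2 to 93.0) to 52.2% (47.9 to 56.4), and MSB3, a GTPase activator of vesicle transport, from 71.7% (62.2 to 79.6) to 37.2% (29.8 to 45.3).

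The enriched glucose column held a few reads of genes that dominate the galactose column. GAL1, GAL2 and GAL10 had 77, 48 and 16 reads there, 0.0522%, 0.0609% and 0.0614% of their galactose reads, where the standard glucose column had 0, 1 and 0. Of these reads 75, 47 and 16 lay on pairs of ends that were also seen in galactose. PHO89 had 51 reads in glucose, 0.783% of its galactose reads, with 48 on such pairs, and 0 in the standard glucose column. In the reverse direction HXT3 had 23 reads in galactose, 0.191% of its glucose reads, with 22 on pairs also seen in glucose. The ratios of these genes depend on such low counts, and where the reads came from was not tested.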

How the data were processed

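The authors sequenced paired transcript ends and deposited 1 table of read counts per pair of ends, with a column for each kind of library and medium, per the file headers. Per the submitters' processing notes, the tools included Novoalign 2.07.10 and CASAVA and the genome build was R64. Treatment of PCR duplicates is not stated in the labels. Reads were assigned to RefSeq R64 coding sequences with Python 3.11.15, numpy 2.4.6, pandas 2.3.3 and scipy 1.17.1. Ratios used edgeR 4.0.16 trimmed-mean scaling in R 4.3.3, with exact conditional binomial intervals at the 95% level; DESeq2 1.42.0 size factors were an alternative. With 1 pooled column per medium no count model was fitted. The calling step was tested on simulated data that held counting error only. They had no PCR copies and no spread between cultures, so the test cannot speak to either. Copies of at least 90% identity over 80% of their length were found with blastn 2.17.0. Figures were drawn with matplotlib 3.10.9.

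The genes compared and the 26 gene lists were chosen with earlier results of these data known. Genes named were the medium markers GAL1, GAL3, MRK1 and HXT1, the 10 highest and 10 lowest long genes with a mean of at least 10 CPM, reads scaled to library size, all measured galactose genes, up to 4 called members of each other list by size of ratio or, with none called, the 2 most abundant, the 5 longest called genes each way and the 5 largest shifts of each end each way. Other genes in the text were chosen after their values were seen. DUR1,2 and ADE5,7 matched no reference symbol. Libraries of non-capped RNA were not used here. Results for some genes that this rule names are not reported here.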

Additional observations from a re-analysis of the deposited data

How the results depend on the processing

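The median log2 ratio of long genes, -0.09, was 0.064 under scaling by total reads, 0.0011 under scaling from long genes, -0.14 with a minimum of 100 reads, and -0.020 and -0.15 with length bounds of 1000 and 2000 nt. With a minimum of 100 reads 235 genes and 74 long genes were higher. Distinct pairs in place of reads gave 262 genes higher and 61 lower, and 71 and 27 among long genes; 248 of the 409 and 58 of the 151 kept their call. At 1.5-fold the counts were 723 and 472, long genes 203 and 220, and at 4-fold 143 and 37, long genes 47 and 19. Bounds of 1000 and 2000 nt gave 210 and 111, and 38 and 31. The share of reads on long genes in galactose and glucose was 42.5% and 36.7% with reads overlapping 50% of a coding sequence, 40.8% and 34.2% with pairs seen 2 or more times, 36.7% and 37.9% with distinct pairs, so that the order of the media changed, and 66.0% and 61.5%, and 7.68% and 8.57%, with the same bounds. Without GAL1, GAL2 and GAL10, a setting added after seeing the data, the galactose share was 35.1%. Leader shifts numbered 27 longer by medians, 20 longer and 20 shorter at 50 reads a column, and 8 and 12 at 100 reads, a minimum also added after seeing the data. For 3' ends the numbers were 5 and 29 at 50 reads, 0 and 20 at 100 reads, and 10 longer within 500 nt. Of the genes named by the rule above, 25 lost their call with distinct pairs, 8 with reads overlapping 50% and 4 under scaling by total reads. Scaling from long genes removed the call of 2, and pairs seen 2 or more times that of 1. CDC7 and RPA135 gained a call with pairs seen 2 or more times. Genes in the text outside that rule, such as PFK1, PFK2 and TPS1, are not in these counts of losses and gains. Under scaling by total reads the medians of cell wall genes, fatty acid and sterol synthesis and RNA polymerase subunits were 0.04, 0.02 and 0.01 in place of -0.11, -0.13 and -0.14. The median log2 ratio of chaperones was -0.11 with distinct pairs, and that of fatty acid oxidation -0.19 with pairs seen 2 or more times. Distinct pairs count repeated reads once by construction; for the other changes the cause was not tested. No paired analysis was possible because each medium has 1 column that sums its libraries, and for the same reason no replicate could be left out.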
